A study of Mus musculus with 96 samples.

Results

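Transcript levels of 10 genes of the urea cycle and of linked amino acid catabolism, namely Cps1, Otc, Ass1, Asl, Arg1, Gls2, Glul, Oat, Tat and Sds, were followed in mouse hepatocytes and liver macrophages. The genes were taken by symbol. Where a symbol had several transcripts, the one of highest mean level stood for it, and the set makes up 10 of the 25095 gene symbols in each of 4 deposited tables. All 10 passed the filter on low values in all 4 tables, which was a level above 5 RPKTM in at least 3 libraries. RPKTM is RPKM, reads scaled to transcript length and to the library's mapped reads, multiplied by 10, and differences are given as log2(RPKTM + 1) units.

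The data were 96 bulk RNA sequencing libraries, 48 for each of the 2 cell types, made from male C57BL/6J mice on a high fat and sucrose diet for 4 weeks, killed at zeitgeber time (ZT, hours after lights on) 4, 10, 16 or 22. Each genotype, cell type and time point had 3 libraries. Control, RevDKO (ReverbhDKO in the genotype field) and RevScapTKO (Reverb/ScaphTKO) libraries of a cell type shared 1 table of 36, and ScapKO (ScaphKO) libraries formed a separate table of 12 per cell type. The study asked how hepatocyte REV-ERBα and REV-ERBβ, which repress clock genes, and SCAP, the escort of the lipid-regulating SREBP factors, shape daily programs in hepatocytes and in neighbouring macrophages. Per the methods, floxed mice (Rev-erbα fl/fl Rev-erbβ fl/fl, with or without Scap fl/fl) received as adults an adeno-associated virus that expressed GFP in controls or CRE in knockouts from the hepatocyte-specific TBG promoter. Control animals thus also carried floxed alleles and virus, and macrophages of Control, RevDKO and RevScapTKO mice were not a target of that promoter. No methods for the ScapKO animals were found, and their hepatocyte libraries are named as hepatocytes in the titles but as liver macrophages in the cell type field. The titles were followed, and marker levels went with them. In these libraries the mean log2 level of 7 hepatocyte markers was 15.4 and that of 10 macrophage markers 5.79. In ScapKO macrophage libraries these were 11.2 and 12.3.

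The urea cycle turns ammonia, released when amino acids are broken down, into urea. CPS1 and OTC carry out its mitochondrial steps, ASS1, ASL and ARG1 its cytosolic steps, and all of them are abundant in hepatocytes around the portal vein. Liver glutaminase GLS2 feeds ammonia into the cycle, glutamine synthetase GLUL captures what remains in hepatocytes around the central vein, and OAT, TAT and SDS degrade ornithine, tyrosine and serine.

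On mm9, in 1-based coordinates of the deposited tables, Cps1 (NM_001080809) lies at chr1:67169601-67277841 and Otc (NM_008769) at chrX:9829431-9898150, both on the plus strand. Ass1 (NM_007494) spans chr2:31325790-31376190 on the plus strand, Asl (NM_133768) chr5:130487128-130500251 on the minus strand and Arg1 (NM_007482) chr10:24635013-24647276 on the minus strand. Gls2 (NM_001285779, 1 of 3 transcripts of that symbol; NM_001033264 in ScapKO macrophages) lies at chr10:127631691-127647060 and Glul (NM_008131) at chr1:155747059-155756853, both on the plus strand. Oat (NM_016978) is at chr7:139749158-139768081 on the minus strand, and Tat (NM_146214) at chr8:112514336-112523704 and Sds (NM_145565) at chr5:120926556-120933914 are on the plus strand. Gls2 overlapped the opposite-strand gene Spryd4 by 95 bp and Sds overlapped Plbd2 on the other strand by 13 bp, and if reads were counted on both strands a small part of these levels could come from the partner. Glul overlaps Mir8114 on its own strand by 108 bp.

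The 250 bases before the annotated start are shown for 3 members that carry the results below, Sds and Ass1 for their differences between genotypes and Glul for its daily course. They were read from the mm9 genome at chr5:120926306-120926555, chr2:31325540-31325789 and chr1:155746809-155747058, all on the plus strand, and are written 5′ to 3′ on the gene's strand. Capitals mark matches, on either strand, to any of 7 letter strings: AGGTCA (nuclear receptor half-site), the E-box CACGTG, the D-box TTATGTAA, the cAMP response element TGACGTCA, the C/EBP palindrome TTGCGCAA, the promoter box CCAAT and the core promoter box TATAAA.
Sds: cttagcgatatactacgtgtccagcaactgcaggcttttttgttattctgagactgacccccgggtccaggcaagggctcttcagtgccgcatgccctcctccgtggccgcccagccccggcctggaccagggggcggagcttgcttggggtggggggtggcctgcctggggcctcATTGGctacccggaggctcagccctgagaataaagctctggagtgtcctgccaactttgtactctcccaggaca
Ass1: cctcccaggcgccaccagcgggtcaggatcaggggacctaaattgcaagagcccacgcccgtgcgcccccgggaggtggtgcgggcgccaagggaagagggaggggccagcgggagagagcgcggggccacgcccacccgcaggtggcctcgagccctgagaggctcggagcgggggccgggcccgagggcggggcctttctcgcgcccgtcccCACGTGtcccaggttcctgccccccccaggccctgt
Glul: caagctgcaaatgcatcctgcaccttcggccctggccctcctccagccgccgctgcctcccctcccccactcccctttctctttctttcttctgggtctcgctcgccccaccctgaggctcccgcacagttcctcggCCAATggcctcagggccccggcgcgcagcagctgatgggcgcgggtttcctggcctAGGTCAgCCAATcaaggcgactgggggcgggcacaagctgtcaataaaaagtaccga
Ass1 held an E-box 36 bases before its start, a string found in 8.114% of the 13310 such regions of tested genes. Glul held AGGTCA at 57 bases, found in 11.28% of regions, next to CCAAT at 50 bases, and a further CCAAT at 113 bases. CCAAT also occurred in the regions of Cps1, Oat, Tat and Sds, giving 5 of 10 members beside 35.95% of all regions. No member held the D-box, cAMP response element, C/EBP palindrome or core promoter box letters, found in 0.5635%, 2.502%, 0.278% and 7.13% of regions. These are matches of letters in a short window and say nothing of binding.

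Several features of the libraries bear on every result. Nr1d1 and Nr1d2, which encode the REV-ERBs, were not lower in hepatocyte libraries labelled RevDKO. The level of Nr1d1 was 90.7 ± 119 RPKTM (SD, n = 12) among Control libraries against 138 ± 108 among RevDKO libraries. That of Nr1d2 was 228 ± 141 against 312 ± 116. At ZT10, ZT16 and ZT22 every RevDKO library held more Nr1d1 than every Control library. At ZT22 these were 39.9, 76.3 and 43.5 against 5.09, 16.2 and 3.57 RPKTM, while at ZT4 the genotypes overlapped. Nr1d2 lay apart in this way only at ZT16. The paper reports strongly reduced Rev-erbα and Rev-erbβ in knockout hepatocytes, shown as relative mRNA levels, a measure apart from the values used here. It also reports a marked derepression of the REV-ERB target Bmal1 in both knockouts, a gene not followed here. The levels here count whole transcripts. Reads over the floxed parts were not examined, so whether the deletion took place was not tested. RevDKO and RevScapTKO therefore mean the libraries so labelled, and any direction drawn from these names carries that limit. Scap followed its label, with 82.8 to 299 RPKTM in RevScapTKO hepatocytes beside 321 to 733 in RevDKO and 395 to 698 in Control. In the ScapKO hepatocyte table the library at ZT22 replicate 2 stood apart, with Scap at 1006 RPKTM where the others held 205 to 380.

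Replicate 2 libraries of the 3-genotype tables held stretches of neighbouring genes that lay high or low together. For each expressed gene (at least 20 RPKTM in 80% of libraries) the deviation from its own median over the libraries of the table was taken. The share of windows of 21 adjacent genes whose median deviation exceeded 0.7 log2 units in size reached 15.5% in hepatocyte replicate 2 libraries (median 4.52%), against at most 0.0257% in replicates 1 and 3. In macrophages the replicate 2 libraries reached 13.8% (median 8.73%) and the others at most 0.443%. Members moved with their neighbours there. In the RevDKO hepatocyte library at ZT22 replicate 2, Otc lay at -3.41 log2 units from its median level, and the median deviation of its 20 nearest neighbours at -2.80. In RevScapTKO hepatocytes Cps1 lay at -1.80 with neighbours at -1.39 at ZT22 replicate 2, and Arg1 at -2.43 with neighbours at -1.81 at ZT4 replicate 2. Gls2 and its neighbours lay high, at +0.73 and +0.82 in RevScapTKO at ZT10 replicate 2. Asl and Sds had no such hepatocyte library, Otc had 4 of 36, Arg1 and Gls2 had 2 each and the remaining members had 1 each, all of them replicate 2. Counts of members called between genotypes and called rhythmic in the 3-genotype tables are therefore also given without the 12 replicate 2 libraries of a table, an alternative chosen after seeing the data. With fewer libraries it also has less power, so a lost call alone does not show that replicate 2 had made it.

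**Figure D1:**
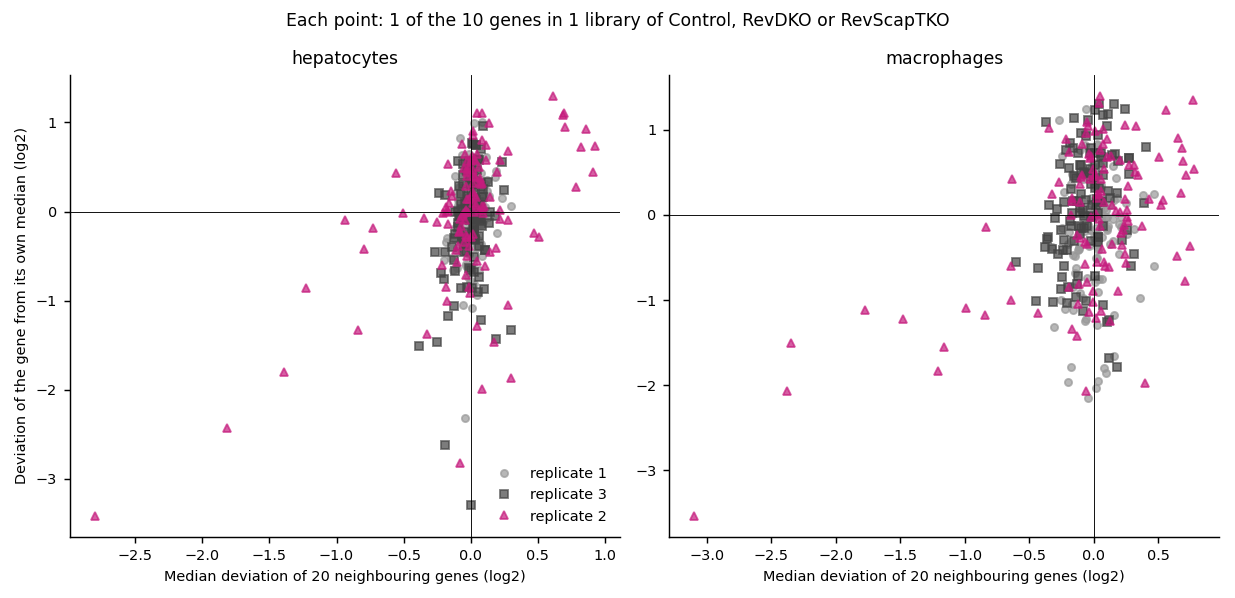
Deviation of each of the 10 genes from its own median over the 36 libraries of a table (y axis, log2) against the median deviation of its 20 nearest expressed neighbours (x axis, log2), for hepatocyte and macrophage libraries of Control, RevDKO and RevScapTKO, with replicate 2 libraries as triangles. All points beyond 0.7 on either side of the x axis are replicate 2 libraries, the lowest in hepatocytes being Otc in RevDKO at ZT22 (-3.41 against -2.80).

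Ass1 has a near-identical copy in the tables. Gm5424 (NR_002687, a pseudogene at chr10:61533770-61535319, plus strand) shared 71.6% of its 50-base stretches with the Ass1 transcript, and of the other short pseudogenes and non-coding genes only Mir8114, which overlaps Glul, shared such stretches with a member. In the 3-genotype hepatocyte table Gm5424 had mean levels of 5651 ± 1483 RPKTM (Control), 6622 ± 1953 (RevDKO) and 4364 ± 918 (RevScapTKO; SD over 12 libraries each), beside Ass1 at 1195 ± 277, 1662 ± 314 and 927 ± 226. Gm5424 made up 68.8% to 89.1% of the sum of both in these libraries but 0.731% to 1.98% in ScapKO hepatocytes, where Ass1 measured 4755 ± 982. The level of Ass1 alone is uncertain in the 3-genotype tables, and its differences are also given for the sum of both rows.

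In Control hepatocytes Cps1, the entry step of the cycle, was by far the most abundant member per length, with 28906 to 56634 RPKTM over the 12 libraries (median 42916). Tat, which starts tyrosine breakdown, followed with 2234 to 7273 (median 4109), and Arg1, which releases urea, with 1581 to 3524 (median 2476). The ranges of Tat and Arg1 overlapped, and both lay below every Cps1 value. Oat ranged from 1016 to 2241 (median 1729), Asl from 872 to 3037 (median 1535), Ass1 from 784 to 1643 (median 1222), Glul from 690 to 1714 (median 1212), Otc from 739 to 1346 (median 892) and Gls2 from 597 to 1227 (median 815). Each of these 6 overlapped its neighbours in the order. Sds, which deaminates serine to pyruvate, was lowest, with 135 to 495 (median 275), below every library of every other member. These levels placed Cps1 at percentile 99.9 and Sds at 87.0 of the 13326 genes tested by their mean over the table.

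**Figure D2:**
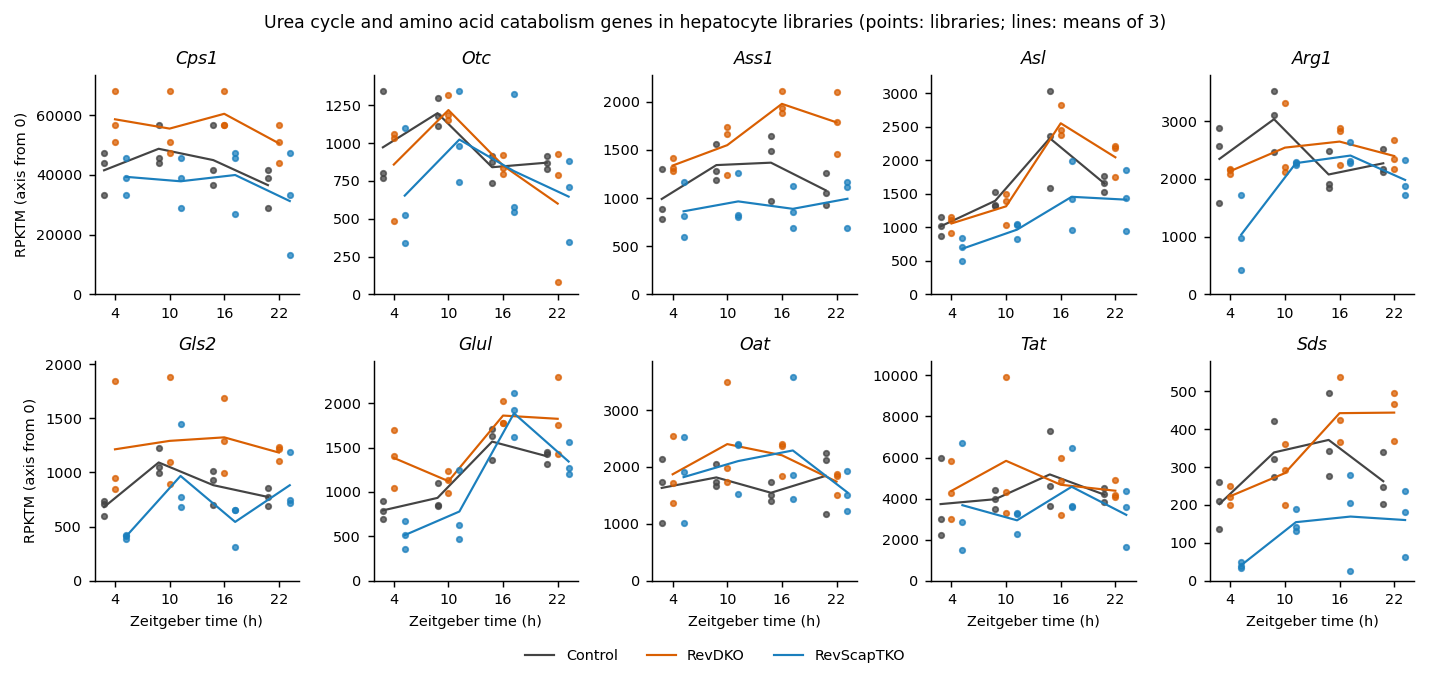
Level of each of the 10 genes (y axis, RPKTM, linear from 0) at ZT4, ZT10, ZT16 and ZT22 (x axis, hours) in hepatocytes of Control, RevDKO and RevScapTKO mice, with 1 point per library and lines through the means of 3. RevScapTKO Sds lay at 34.4 to 49.3 at ZT4 while RevDKO lay at 199 to 250, and Glul of all 3 genotypes was higher at ZT16 than at ZT4.

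In hepatocyte libraries labelled RevDKO, whole-transcript levels of Nr1d1 and Nr1d2 were not lower than in Control, as given above. Ass1 and Gls2 were higher in RevDKO than in Control hepatocytes, and no member was lower past the threshold. These 2 of 10 members stand beside 4.43% of all genes called in either direction with 2% called higher and 2.43% lower (limma, adjusted p under 0.05 over 13326 genes). The median difference of the members was 0.25 log2 units, against -0.01 for all genes. Ass1, which joins citrulline and aspartate, ranged from 784 to 1643 RPKTM in Control and from 1242 to 2112 in RevDKO (medians 1222 and 1702). All 12 RevDKO libraries lay above the Control median and 7 above every Control library. The difference was 0.49 (SE 0.12, limma adjusted p 0.0160) and 0.46 without replicate 2 (adjusted p 0.0366), but 0.27 for the sum of Ass1 and Gm5424 (adjusted p 0.272), which was not past the threshold. Over 9 other settings the adjusted p of Ass1 ran from 0.00315 to 0.272 and that of Gls2 from 0.00687 to 0.170. Gls2 ranged from 597 to 1227 in Control and from 846 to 1880 in RevDKO (medians 815 and 1159), again with all 12 RevDKO libraries above the Control median. Its 3 highest values, 1690, 1849 and 1880, were replicate 2 libraries at ZT16, ZT4 and ZT10. The difference of 0.53 (SE 0.15, limma adjusted p 0.0358) was 0.34 without replicate 2 (adjusted p 0.170). The Gls2 call was also lost on leaving out any 1 of 11 libraries (Control at ZT4 replicate 2, ZT10 replicates 1 and 3, ZT16 replicate 1 and ZT22 replicate 1, and RevDKO replicate 2 at all 4 times and replicate 3 at ZT16 and ZT22), with limma adjusted p from 0.0546 to 0.0876.

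The other 8 members did not pass the threshold between RevDKO and Control. Glul, which ranged from 690 to 1714 RPKTM in Control and from 993 to 2294 in RevDKO, differed by 0.41 (95% interval 0.16 to 0.67, limma adjusted p 0.0525) and passed when any 1 of 9 libraries was left out (Control ZT4 replicate 1 and ZT10 replicate 3, RevDKO replicate 3 at ZT4 and ZT22, and RevScapTKO replicates 1 and 2 at ZT4, replicates 2 and 3 at ZT10 and replicate 2 at ZT22; adjusted p from 0.0154 to 0.0499). Without replicate 2 it differed by 0.36 (adjusted p 0.193). Cps1 differed by 0.40 (interval 0.07 to 0.73, limma adjusted p 0.183), and its RevDKO libraries, 44033 to 68172 with a median of 56634, all lay above the Control median of 42916. Otc differed by -0.33 (interval -0.87 to 0.21, adjusted p 0.593), a value set by 1 library: RevDKO ZT22 replicate 2 held 81.6 RPKTM where replicates 1 and 3 held 790 and 930, and without it the difference was -0.05. Asl, Arg1, Oat, Tat and Sds differed by 0.11, 0.02, 0.26, 0.16 and 0.24, with limma adjusted p from 0.472 to 0.973.

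Between RevScapTKO and RevDKO hepatocytes, which differ in the added Scap deletion, 7 of 10 members fell: Cps1, Ass1, Asl, Arg1, Gls2, Glul and Sds. This stands beside 26.2% of all genes called, 13.5% higher and 12.7% lower (limma, adjusted p under 0.05). The median difference was -0.63 log2 units over the members and -0.03 over all genes. Without replicate 2, 6 of 10 fell, all but Arg1 of those 7, beside 8.68% of genes called.

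Sds differed most. RevDKO libraries held 220, 250 and 199 RPKTM at ZT4, 200, 291 and 360 at ZT10, 365, 537 and 424 at ZT16, and 496, 466 and 369 at ZT22. RevScapTKO libraries held 49.3, 34.4 and 39.5 at ZT4, 143, 131 and 189 at ZT10, 279, 205 and 24.5 at ZT16, and 237, 61.8 and 182 at ZT22. All RevScapTKO values lay below all RevDKO values at each of the 4 times, and 9 of 12 lay below the lowest RevDKO value of the day, 199. The difference was -1.72 (SE 0.25, limma adjusted p 8.49e-06), and -1.55 without replicate 2 (adjusted p 0.00433).

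Gls2 and Ass1 came next. Gls2 ranged from 316 to 1448 RPKTM in RevScapTKO (median 668), with 10 of 12 libraries below the lowest RevDKO value, 846. The 2 libraries above it, 1448 at ZT10 and 1188 at ZT22, were replicate 2 libraries in which the neighbours of Gls2 also lay high. Its difference was -0.92 (SE 0.15, limma adjusted p 3.67e-05), and -0.90 without replicate 2 (adjusted p 9.21e-05). Ass1 ranged from 600 to 1263 (median 841), and 11 of 12 RevScapTKO libraries lay below the lowest RevDKO value, 1242. It differed by -0.86 (SE 0.12, limma adjusted p 7.42e-06), by -0.90 without replicate 2 (adjusted p 5.54e-05) and by -0.63 for the sum with Gm5424 (adjusted p 0.000581).

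Cps1, Asl, Glul and Arg1 fell by less. Cps1 ranged from 13136 to 47286 RPKTM in RevScapTKO (median 39107) against 44033 to 68172 in RevDKO, so that 7 of 12 libraries lay below all RevDKO libraries. It differed by -0.66 (SE 0.16, limma adjusted p 0.00333) and by -0.61 without replicate 2 (adjusted p 0.0216). Asl, which splits argininosuccinate, ranged from 497 to 1983 against 910 to 2828, and RevScapTKO means were lower at all 4 times. It differed by -0.63 (SE 0.12, limma adjusted p 0.000323) and by -0.62 without replicate 2 (adjusted p 0.00607). Glul differed by -0.63 (SE 0.13, limma adjusted p 0.000484) and by -0.49 without replicate 2 (adjusted p 0.0346). At ZT16 the Glul levels of the 2 genotypes overlapped, with 1621, 1926 and 2112 RPKTM in RevScapTKO and 1778, 2027 and 1778 in RevDKO. A changed daily course of Glul was not called in the test given below. Arg1 differed by -0.45 (SE 0.14, limma adjusted p 0.0199), but by -0.39 without replicate 2 (adjusted p 0.0850). All 7 calls were kept with any 1 library left out. Over 9 other settings the highest adjusted p was 0.00400 for Ass1, 0.00863 for Gls2 and 0.0315 for Sds, and 0.0841 for Asl, 0.0903 for Glul, 0.405 for Cps1 and 0.477 for Arg1.

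Otc, Oat and Tat did not pass the threshold between RevScapTKO and RevDKO. Otc differed by -0.09 (95% interval -0.63 to 0.46, limma adjusted p 0.845), Oat by -0.12 (interval -0.46 to 0.22, adjusted p 0.638) and Tat by -0.48 (interval -0.92 to -0.04, adjusted p 0.10). Tat passed on leaving out RevScapTKO ZT4 replicate 2 (-0.62, limma adjusted p 0.0238), the library with the highest Tat of its group, 6693 RPKTM. Oat spread widely in RevScapTKO, from 1018 to 3578.

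**Figure D3:**
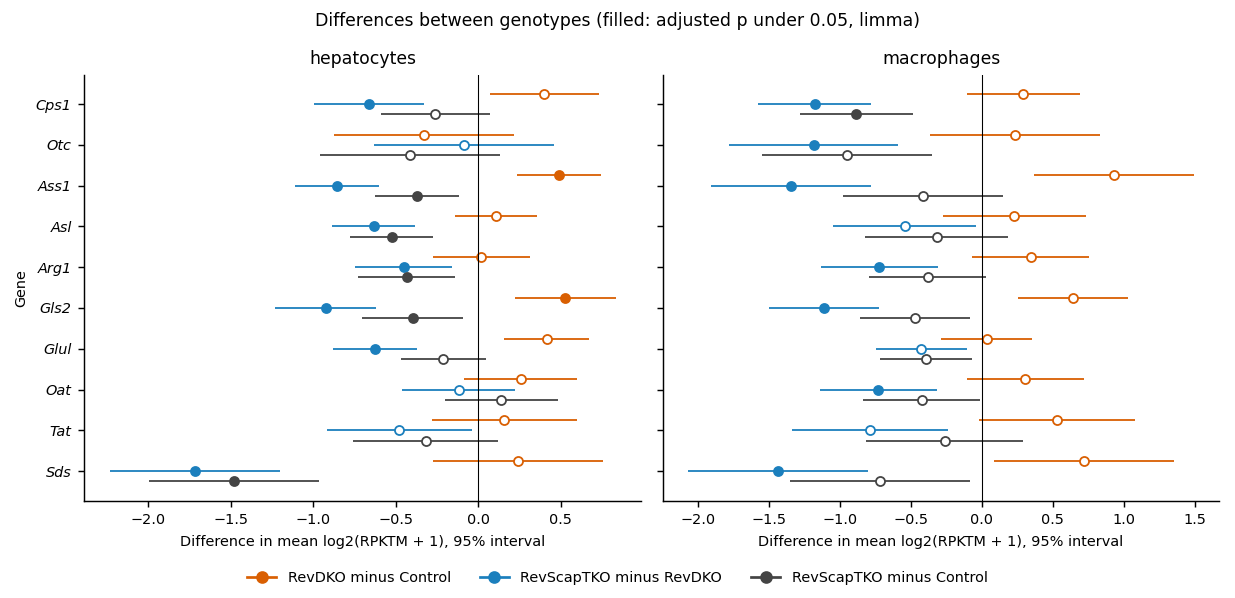
Differences in mean log2(RPKTM + 1) between genotypes with 95% intervals (x axis) for each of the 10 genes (y axis) in hepatocytes (left) and macrophages (right), filled where the limma adjusted p was under 0.05. The RevScapTKO minus RevDKO values lie left of 0 for all 10 genes in both cell types, with Sds farthest left in both (-1.72 and -1.44).

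Between RevScapTKO and Control hepatocytes 5 of 10 members fell, namely Ass1, Asl, Arg1, Gls2 and Sds, beside 35.9% of all genes called, 17.3% higher and 18.7% lower (limma, adjusted p under 0.05). This comparison shares its libraries with the others and is no further sample. Sds differed by -1.48 (SE 0.25, limma adjusted p 4.05e-05) and by -1.22 without replicate 2 (adjusted p 0.0106). RevScapTKO medians were 137 RPKTM for Sds against 275 in Control, 1001 for Asl against 1535, and 668 for Gls2 against 815. Asl differed by -0.52 (SE 0.12, limma adjusted p 0.00130), Arg1 by -0.43 (adjusted p 0.0187), Gls2 by -0.40 (adjusted p 0.0380) and Ass1 by -0.37 (adjusted p 0.0209). The sum of Ass1 and Gm5424 differed by -0.36 (limma adjusted p 0.0303), and by -0.33 without replicate 2 (adjusted p 0.0759), which did not pass. Over 9 other settings the highest adjusted p was 0.0900 for Sds, 0.154 for Asl, 0.323 for Ass1, 0.333 for Gls2 and 0.386 for Arg1, each under the marker covariate described next. Without replicate 2 Arg1 no longer passed (-0.23, limma adjusted p 0.238), and 4 members were called beside 21.7% of genes. The Gls2 call was lost on leaving out any 1 of 13 libraries (Control replicates 1 and 3 at ZT4, replicate 2 at ZT10, replicates 2 and 3 at ZT16 and ZT22, and RevScapTKO replicate 3 at all 4 times and replicate 1 at ZT10 and ZT22; limma adjusted p from 0.0502 to 0.0952). The Ass1 call was lost without RevScapTKO ZT4 replicate 3 or ZT22 replicate 2 (highest limma adjusted p 0.0524). Glul passed without RevScapTKO ZT10 replicate 3 (-0.31, limma adjusted p 0.0254) and otherwise differed by -0.21 (adjusted p 0.192). Cps1, Otc, Oat and Tat differed by -0.26, -0.41, 0.14 and -0.32, with limma adjusted p from 0.216 to 0.541.

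Markers of other liver cells also differed between these hepatocyte libraries. The mean log2 level of 10 macrophage markers was 5.99 in Control (4.08 to 7.78), 6.06 in RevDKO (4.66 to 7.37) and 7.23 in RevScapTKO (5.94 to 8.60), and their summed level was 227 to 2995, 369 to 2303 and 901 to 6027 RPKTM. The mean of 5 stellate cell markers was 5.60, 5.84 and 6.82, that of 5 endothelial markers 6.83, 7.11 and 7.50, and that of 7 measured hepatocyte markers 14.6, 14.6 and 14.5. No macrophage, endothelial or hepatocyte marker was at 0 in any of these libraries, and 1 stellate marker was at 0 in some Control and RevDKO libraries. With the macrophage score as a covariate, 3 members were lower in RevScapTKO than in RevDKO: Ass1 by -0.82 (limma adjusted p 0.00400), Gls2 by -0.92 (adjusted p 0.00863) and Sds by -1.26 (adjusted p 0.0315). Over RevScapTKO minus Control none was called with that covariate, Sds standing at -0.99 (limma adjusted p 0.0900). The score itself differs between these genotypes, and the covariate raised the SE of Ass1 to 0.17 in RevScapTKO minus RevDKO. The share of all genes called with it is not given here, so the lost calls are not read as particular to the members. The part of other cells in the members' differences was not tested further. In these bulk libraries fewer cells of a type and less RNA per cell cannot be told apart.

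Daily courses differed between members. JTK_CYCLE, a rank test against cosine patterns with periods of 18 and 24 h, was run on each series repeated over 2 days. The repeat lowers every p although no measurement is added. A gene was called where its best period was 24 h, p was under 0.05 and its highest time point mean was more than 1.5 times its lowest. By this rule 4 members were called in Control hepatocytes (Asl, Gls2, Glul and Sds, beside 30.1% of genes), 4 in RevDKO (Otc, Asl, Glul and Sds, beside 30.9%), 4 in RevScapTKO (Asl, Arg1, Glul and Sds, beside 22.3%) and 1 in ScapKO (Asl, beside 19.9%). With 10 members, each count lies within 2 genes of the share of all genes. With the series entered once, 2 remained in Control (Asl and Glul, beside 10.4%), 3 in RevDKO (Otc, Asl and Sds, beside 9.34%), 2 in RevScapTKO (Arg1 and Glul, beside 3.32%) and Asl in ScapKO (beside 5.16%). Without replicate 2 the repeated series called 3 members in Control (Asl, Glul and Sds, beside 19.5% of genes), 4 in RevDKO (Ass1, Asl, Glul and Sds, beside 21.97%) and 3 in RevScapTKO (Asl, Glul and Tat, beside 14.1%), and the series entered once called 0, 1 (Asl) and 0.

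Asl, high in the dark phase, was called in all 4 genotypes. In Control it measured 1017, 1157 and 872 RPKTM at ZT4, 1535, 1325 and 1330 at ZT10, 1590, 3037 and 2363 at ZT16 and 1535, 1767 and 1664 at ZT22. The ZT4 libraries were the lowest and did not overlap those of any other time. The highest time point mean was 2.29 times the lowest in Control, 2.41 in RevDKO, 2.14 in RevScapTKO and 2.28 in ScapKO. In a 24 h cosine fit, adjusted over all genes, Asl passed in all 4 genotypes, with fitted peaks at ZT16.8, ZT17.8, ZT17.7 and ZT16.6 (limma adjusted p 0.00661, 0.00408, 0.0370 and 0.00769), where 8.29%, 4.08%, 0.683% and 1.85% of genes did. Without replicate 2 the RevDKO fit of Asl passed (limma adjusted p 0.0301) and those in Control and RevScapTKO did not (adjusted p 0.0738 and 0.219), where 2.74%, 0.915% and 0.00769% of genes passed in Control, RevDKO and RevScapTKO. Cosine fits in macrophages called 0 members in any genotype, with or without replicate 2 in the 3-genotype table, where with all libraries 0.0502% (Control), 2.53% (RevDKO), 0.0789% (RevScapTKO) and 0% (ScapKO) of genes were called.

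Glul, the ammonia scavenger, was low in the light phase and high in the dark phase. Control held 900, 787 and 690 RPKTM at ZT4 and 1361, 1628 and 1714 at ZT16, and RevScapTKO 673, 354 and 514 at ZT4 and 1621, 1926 and 2112 at ZT16. The ranges at the 2 times were apart in both genotypes and also in RevDKO, which held 1406, 1701 and 1045 at ZT4 and 1778, 2027 and 1778 at ZT16. The highest time point mean was 1.98 times the lowest in Control, 1.66 in RevDKO and 3.67 in RevScapTKO. The cosine fit passed in Control (peak ZT18.1, limma adjusted p 0.0103) and RevScapTKO (peak ZT17.7, adjusted p 6.18e-05), where the fitted peak-to-trough difference was 1.15 and 2.1 log2 units. Without replicate 2 neither fit of Glul passed, with differences of 1.12 (limma adjusted p 0.0722) and 1.719 log2 units (adjusted p 0.168). Over all genes the number passing fell from 1105 to 356 in Control and from 91 to 1 in RevScapTKO. With all libraries it missed the threshold in RevDKO (0.82 log2 units, limma adjusted p 0.109) and in ScapKO (0.64, adjusted p 0.643).

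Arg1 passed the cosine fit in RevScapTKO hepatocytes (peak ZT15.4, limma adjusted p 0.0343), where its ZT4 libraries held 1720, 418 and 971 RPKTM and the 9 others 1727 to 2631. The lowest, 418, was the replicate 2 library whose neighbouring genes lay low as well, and without replicate 2 neither the cosine fit nor JTK_CYCLE called Arg1. The Otc call in RevDKO was lost on leaving out RevDKO ZT22 replicate 2, and the Sds call in RevScapTKO on leaving out any 1 of 8 libraries (replicates 1 and 2 at ZT4, ZT10 and ZT16, and replicate 3 at ZT4 and ZT22), while no other hepatocyte call was lost in this way.

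No member passed the test of a changed rhythm, which asks whether the fitted daily curve of a gene differs between genotypes. Between RevDKO and Control hepatocytes 0 of 10 were called beside 0.203% of genes (limma, 27 called and 654 at an unadjusted p under 0.05, no member among the latter). Between RevScapTKO and RevDKO hepatocytes 0 were called, beside 0% of genes (674 unadjusted), and 2 members had an unadjusted p under 0.05, Glul (p 0.00102, limma adjusted p 0.799) and Arg1 (p 0.0297, adjusted p 0.944). In macrophages 0 of 10 were called in both contrasts, beside 0% of genes (767 and 498 unadjusted, no member among them). Without replicate 2 no member was called in these 4 tests either (limma, 2 and 0 genes called in hepatocytes with 577 and 444 unadjusted, 0 and 0 in macrophages with 286 and 321), and Glul between RevScapTKO and RevDKO hepatocytes had an unadjusted p of 0.0374. The larger Glul course in RevScapTKO is thus not shown to differ from that in RevDKO after adjustment.

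Other genes of amino acid metabolism were taken from a fixed list of 60, of which 58 were tested in hepatocytes. Between RevDKO and Control 8 rose and 0 fell (limma, adjusted p under 0.05), beside 2% of all genes higher and 2.43% lower, with a median of 0.08 log2 units. Without replicate 2 again 8 rose and 0 fell, beside 3.58% of genes called. Between RevScapTKO and RevDKO 1 rose and 26 fell (median -0.31), beside 13.5% of all genes higher and 12.7% lower, or 2 and 17 without replicate 2, beside 8.68% called. Between RevScapTKO and Control 5 rose and 23 fell (median -0.22), beside 17.3% higher and 18.7% lower, or 7 and 15 without replicate 2, beside 21.7% called. The macrophage and stellate marker scores given above were higher in the same RevScapTKO libraries (macrophage 7.23 against 6.06 in RevDKO and 5.99 in Control), and their part in these counts was not tested. In RevScapTKO minus RevDKO branched-chain amino acid genes fell in 7 of 11 cases, against 2 without replicate 2. Kynu, which cleaves kynurenine in tryptophan breakdown, rose from 662 ± 115 RPKTM (SD, n = 12, Control) to 1343 ± 118 (RevDKO), by 1.04 (SE 0.11, limma adjusted p 3.09e-08). Got1, the cytosolic aspartate transaminase, measured 925 ± 305 in RevDKO and 408 ± 181 in RevScapTKO, a difference of -1.22 (SE 0.19, limma adjusted p 1.65e-05). Hal, the first enzyme of histidine breakdown, measured 1197 ± 404 and 569 ± 258 in these groups, a difference of -1.14 (SE 0.18, limma adjusted p 3.08e-05). Afmid, a tryptophan pathway enzyme, measured 264 ± 46.1 in Control and 97.8 ± 43.0 in RevScapTKO, a difference of -1.52 (SE 0.15, limma adjusted p 4.17e-09). Sdsl, a paralog of Sds with low levels, differed in the same groups by -1.05 (SE 0.21, limma adjusted p 0.000276). All of these passed without replicate 2 as well, at 0.97, -1.25, -0.72, -1.44 and -0.87 (highest limma adjusted p 0.0205).

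Of 9 factors and receptors known to act on amino acid catabolism (such as Nr3c1, Cebpb, Ppargc1a and Gcgr), 0 rose and 2 fell between RevDKO and Control, 0 and 3 between RevScapTKO and RevDKO, and 0 and 4 between RevScapTKO and Control (limma, adjusted p under 0.05). Of 8 pericentral markers 0 rose and 1 fell, 1 rose and 2 fell, and 0 rose and 3 fell in the same order, and of 5 periportal markers 0 and 1, 2 and 1, and 2 and 1. These counts stand beside 4.43%, 26.2% and 35.9% of all genes called, and in the latter 2 comparisons those of regulators and pericentral markers lie within 1 gene of that share. Without replicate 2 the counts were 0 and 1, 0 and 1, and 0 and 5 for regulators, 0 and 1, 1 and 1, and 0 and 3 for pericentral markers, and 0 and 1, 2 and 1, and 1 and 0 for periportal markers, beside 3.58%, 8.68% and 21.7% of genes. The periportal cadherin gene Cdh1 had a mean of 223 ± 88.2 RPKTM over Control libraries, of 120 ± 65.0 over RevDKO libraries and of 346 ± 214 over RevScapTKO libraries (SD, n = 12). It differed by -0.99 between RevDKO and Control (SE 0.20, limma adjusted p 0.00136) and by 1.54 between RevScapTKO and RevDKO (adjusted p 7.83e-07). Hal, given above as a histidine gene, is counted among the 5 periportal markers as well. It went the other way between RevScapTKO and RevDKO, at -1.14 (limma adjusted p 3.08e-05). The pericentral ammonia transporter gene Rhbg fell by 1.27 in RevDKO (SE 0.25, limma adjusted p 0.00126), and the pericentral factor gene Tbx3 by 1.16 between RevScapTKO and Control (SE 0.17, adjusted p 3.16e-06). Without replicate 2 these differences were -1.05 and 1.24 for Cdh1, -1.05 for Rhbg and -1.02 for Tbx3, all past the threshold (highest limma adjusted p 0.0408).

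Over the 36 hepatocyte libraries the gene most alike Sds was Thrsp, a lipid synthesis gene (Pearson r 0.92), and this partner was unchanged over the 24 libraries without replicate 2 (r 0.90). Asl was most like Slc37a4, the glucose 6-phosphate carrier (r 0.86), Ass1 like Hamp2 (r 0.82), Gls2 like Aldh1b1 (r 0.80) and Tat like Dnajc22 (r 0.71). Cps1 with Pcmtd1 (r 0.81), Otc with Dynlt3 (r 0.93), Arg1 with Pex7 (r 0.86), Oat with Lhpp (r 0.75) and Glul with the overlapping Mir8114 (r 0.84) were pairs on 1 chromosome. Without replicate 2 Pcmtd1 remained the partner of Cps1 (r 0.80), while the 8 members other than Cps1 and Sds had another partner. Otc was then most like Aldh6a1 (r 0.93), Arg1 like Chchd3 (r 0.85), Gls2 like Thrsp (r 0.88), Ass1 like its copy Gm5424 (r 0.95), Asl like Khk (r 0.91), Glul like Lamc3 (r 0.81), Oat like Atp6v1h (r 0.73) and Tat like Trappc6a (r 0.82), with r between Tat and Dnajc22 at 0.51. Among the members themselves Asl and Sds were most alike (r 0.78), and Oat had no r above 0.28 with any other. These correlations share genotype, time and library and are descriptions.

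In liver macrophages the members were found at lower levels. Cps1 ranged from 3284 to 8089 RPKTM in Control, Glul from 401 to 817, Tat from 278 to 1197, Asl from 176 to 1054 and Sds from 24.6 to 192. Transcripts of hepatocytes were present in every macrophage library: the 7 hepatocyte markers had a mean log2 level of 11.7 among Control, 11.8 among RevDKO and 11.6 among RevScapTKO libraries (10.3 to 12.3 over all 36), none was at 0, and Alb ranged from 15656 to 1.61e+06. Quantile normalization gives Alb stepped values, and the highest, in Control ZT22 replicate 1, came with a hepatocyte marker score of 11.6. The range of Alb is therefore not read as a range of hepatocyte RNA. The 10 macrophage markers had means of 9.80, 9.24 and 9.33. The hepatocyte marker score went with Asl across the 36 libraries (Pearson r 0.59, permutation p 0.0002, adjusted p 0.004; Spearman rho 0.53, permutation p 0.001, adjusted p 0.02), the highest r among the members in this table, with p adjusted over 20 relations that include those in ScapKO macrophages. It was 0.45 without the 2 farthest libraries and 0.66, 0.43 and 0.61 within Control, RevDKO and RevScapTKO. The other 8 members had r from 0.22 to 0.46. Glul differed in sign, with r of -0.36 (permutation p 0.03, adjusted p 0.043; rho -0.40, permutation p 0.017, adjusted p 0.025; r -0.26 without the 2 farthest) and -0.51, -0.67 and -0.45 within genotypes. GLUL is also known as a macrophage enzyme, and the origin of each transcript in these libraries was not tested.

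**Figure D4:**
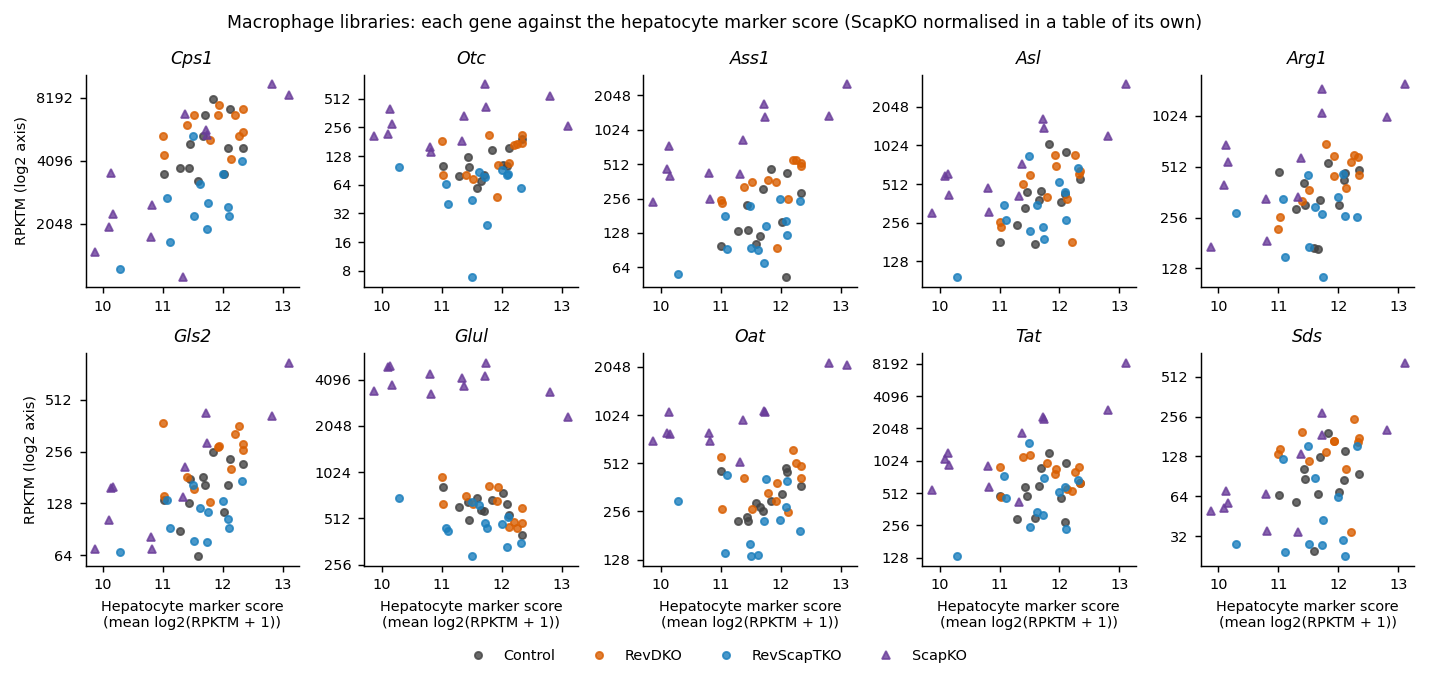
Level of each of the 10 genes in macrophage libraries (y axis, RPKTM, log2 axis) against the mean log2 level of 7 hepatocyte markers (x axis), with 1 point per library and colours for Control, RevDKO, RevScapTKO and ScapKO, the last normalised in a table of its own. Asl rises with the marker score (r 0.59 over 36 libraries), while Glul falls (r -0.36).

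Between RevDKO and Control macrophages 0 of 10 members were called, beside 0.574% of genes (limma, 80 genes called, 0.402% higher and 0.172% lower, and 1934 genes including 3 members at an unadjusted p under 0.05). Ass1 differed by 0.93 (SE 0.28, limma adjusted p 0.134) and passed without Control ZT22 replicate 3 or RevDKO ZT16 replicate 2 (highest adjusted p 0.0353). The sum of Ass1 and Gm5424 differed by 0.64 (limma adjusted p 0.231). Gls2 differed by 0.64 (SE 0.19, limma adjusted p 0.130) and passed without Control ZT22 replicate 3 (adjusted p 0.0236). The median difference was 0.32 over the members and -0.04 over all genes. Without replicate 2 again 0 of 10 were called, beside 0.102% of genes (limma, 13 genes called, and 1235 genes including 4 members at an unadjusted p under 0.05), with Ass1 at 0.91 (limma adjusted p 0.403) and Gls2 at 0.64 (adjusted p 0.446).

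Between RevScapTKO and RevDKO macrophages 7 of 10 members fell, namely Cps1, Otc, Ass1, Arg1, Gls2, Oat and Sds, beside 3% of genes called, 1.23% higher and 1.78% lower (limma, adjusted p under 0.05). Without replicate 2 this held for Cps1, Ass1, Gls2 and Sds, beside 0.993%. Cps1 ranged from 4162 to 7571 RPKTM in RevDKO and from 1242 to 5379 in RevScapTKO (medians 5834 and 2523), and differed by -1.18 (SE 0.20, limma adjusted p 0.000174; -1.14 and 0.0337 without replicate 2). Gls2 ranged from 131 to 377 and from 66.7 to 173, and differed by -1.11 (SE 0.19, limma adjusted p 0.000275; -1.01 and 0.0476). Ass1 differed by -1.34 (SE 0.28, limma adjusted p 0.00299; -1.58 and 0.00864; -1.39 and 0.000204 for the sum with Gm5424), and Sds by -1.44 (SE 0.31, limma adjusted p 0.00501; -1.49 and 0.0337). Sds libraries of RevScapTKO spread widely, with 27.6, 24.2 and 27.7 RPKTM at ZT4 but 154 at ZT22 replicate 3 and 155 at ZT16 replicate 2, against a RevDKO range of 34.2 to 244.

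Otc differed by -1.18 between RevScapTKO and RevDKO macrophages (limma adjusted p 0.0169), but by -0.70 without replicate 2 (adjusted p 0.383). The Arg1 difference, -0.72 (limma adjusted p 0.0415), was lost without any 1 of 15 libraries (RevDKO replicates 2 and 3 at ZT4 and ZT22, replicates 1 and 3 at ZT10 and replicate 1 at ZT16, and RevScapTKO replicates 2 and 3 at ZT4 and ZT22, replicate 2 at ZT10 and all 3 at ZT16; adjusted p from 0.0503 to 0.0999). That of Oat, -0.73 (limma adjusted p 0.0388), was lost without any 1 of 11 (RevDKO replicate 2 at all 4 times, and RevScapTKO replicates 1 and 3 at ZT4 and ZT22, replicate 3 at ZT10 and replicates 1 and 2 at ZT16; adjusted p from 0.0554 to 0.0916). Asl, Glul and Tat differed by -0.54, -0.43 and -0.79 (limma adjusted p 0.224, 0.127 and 0.113), and Tat passed without RevScapTKO ZT16 replicate 2 (adjusted p 0.0495). With the hepatocyte marker score as a covariate, Cps1 differed by -1.12 (limma adjusted p 0.000421), Gls2 by -1.07 (adjusted p 0.000889), Ass1 by -1.16 (adjusted p 0.0124) and Sds by -1.35 (adjusted p 0.0139), and Glul, not called otherwise, by -0.58 (adjusted p 0.0123). Otc at -1.18 (limma adjusted p 0.0255) and Oat at -0.75 (adjusted p 0.0380) passed too, while Arg1 at -0.67 (adjusted p 0.0620), Asl and Tat did not. Over 10 other settings the adjusted p of Cps1, Ass1, Gls2 and Sds did not exceed 0.0337, 0.0180, 0.0476 and 0.0337.

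Between RevScapTKO and Control macrophages only Cps1 passed among the members (-0.89, SE 0.20, limma adjusted p 0.00548), beside 3.76% of genes called (2.38% higher and 1.38% lower), and 0 passed without replicate 2, beside 1.13% (Cps1 -0.85, limma adjusted p 0.127). Otc at -0.95 (limma adjusted p 0.0639) passed without Control ZT22 replicate 1 or RevScapTKO ZT10 replicate 1, ZT16 replicate 1 or ZT16 replicate 3 (highest adjusted p 0.0379), and Gls2 at -0.47 (adjusted p 0.175) without Control ZT22 replicate 1 (adjusted p 0.0403). In the rank test on repeated series, Otc and Oat were called rhythmic in Control macrophages (beside 22.2% of genes), Ass1, Asl, Arg1 and Gls2 in RevDKO (30.1%), Cps1, Asl, Arg1 and Sds in RevScapTKO (16.9%) and 0 of 10 in ScapKO (23.2%). With the series entered once 0 of 10 were called in each of these 4 groups, beside 2.91%, 5.34%, 2.57% and 3.63%. Without replicate 2 the repeated series called Oat in Control (beside 11.6% of genes), Ass1, Asl, Arg1, Gls2 and Sds in RevDKO (21.9%) and Cps1 and Asl in RevScapTKO (12.1%), and the series entered once called 0 in each of the 3. Of the repeated-series calls, Asl and Arg1 in RevScapTKO were kept with any 1 library left out. Arg1 in RevDKO was lost without ZT10 replicate 1 and Cps1 in RevScapTKO without ZT16 replicate 2, while Otc (5 of 12 libraries), Oat (6), Ass1 (9), Asl in RevDKO (5), Gls2 (6) and Sds (5) were each lost on leaving out any of several.

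ScapKO libraries have no Control in their tables, so their levels are descriptions. In hepatocytes Cps1 ranged from 33911 to 75737 RPKTM (median 58523), Tat from 5846 to 11786 (median 8358), Arg1 from 3689 to 6410 (median 5320), Ass1 from 2812 to 6041 (median 4815) and Asl from 1874 to 5203 (median 3181). Otc ranged from 860 to 3188 (median 2568), Glul from 1254 to 4071 (median 2032), Gls2 from 1161 to 2374 (median 1813), Oat from 1302 to 2411 (median 1814) and Sds from 335 to 1070 (median 600). Cps1 was again highest and Sds lowest. The library that stood apart, ZT22 replicate 2, held the lowest Otc, Ass1, Gls2 and Oat of the 12. Without it the lowest values were 2335 for Otc, 3708 for Ass1, 1517 for Gls2 and 1417 for Oat, and the ranges of the other 6 members did not change. Its macrophage marker score, 7.46, was the highest of the table, where the lowest was 4.82. Asl rose from 2775, 1924 and 1874 at ZT4 to 5203, 4681 and 5099 at ZT16, with no overlap, and was the only member called rhythmic there.

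**Figure D5:**
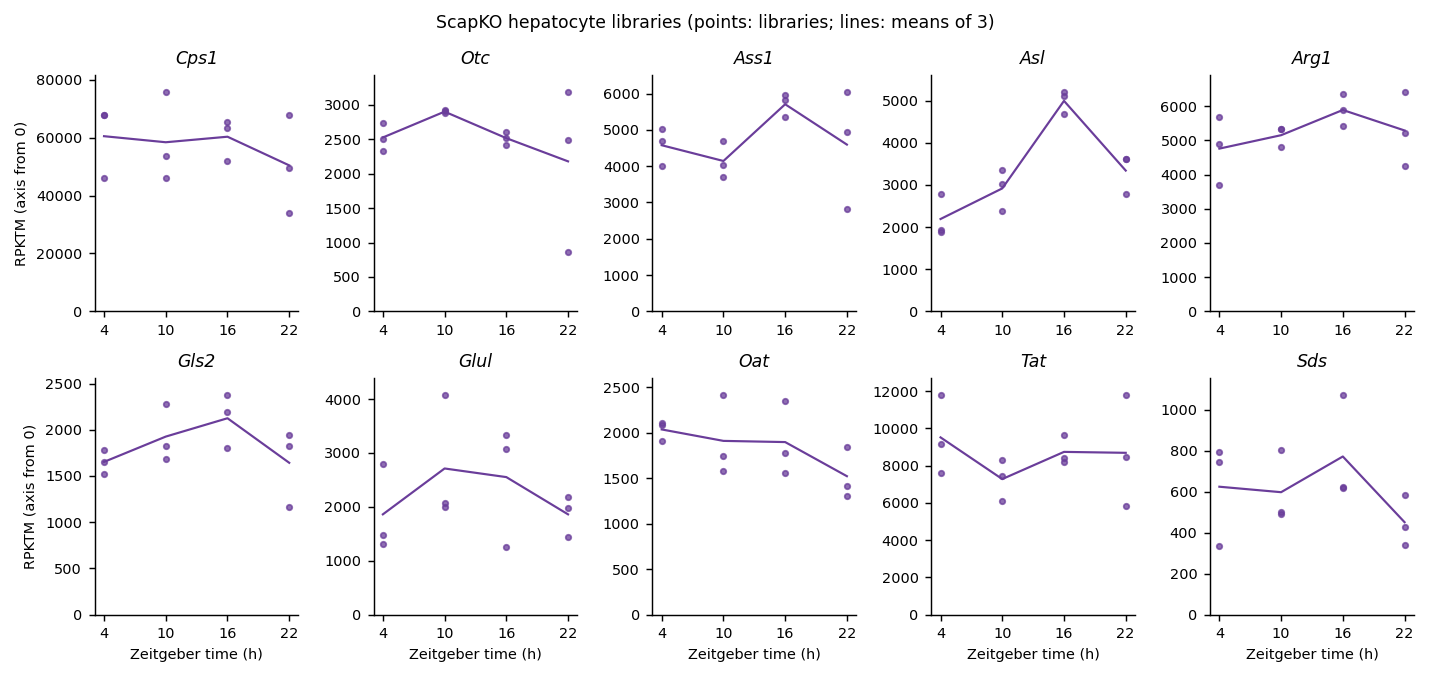
Level of each of the 10 genes (y axis, RPKTM, linear from 0) by time of day (x axis, ZT in hours) in the 12 ScapKO hepatocyte libraries, with 1 point per library and a line through the means. Asl is highest at ZT16 (4681 to 5203), and Otc has 1 low value, 860, at ZT22 replicate 2.

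In ScapKO macrophages the order differed. Glul ranged from 2345 to 5250 RPKTM (median 3974) and Cps1 from 1139 to 9503 (median 3054), so that the medians of both lay close. The log2 levels of Glul had an SD of 0.33, while those of the other 9 members had SDs of 0.62 to 1.3. Sds ranged from 34.5 to 653 and Tat from 426 to 8358, with both maxima in ZT22 replicate 2, the library of the highest hepatocyte marker score (13.1, the lowest being 9.87). In that library 12.6% of windows of neighbouring genes had a median deviation above 0.7 log2 units in size. Across the 12 libraries Gls2 had the highest r with the hepatocyte score (0.85, permutation p 0.00067, adjusted 0.0058; rho 0.78, permutation p 0.0037, adjusted 0.02; r 0.67 without the 2 farthest libraries), Asl, Ass1 and Sds had r of 0.82, 0.81 and 0.81, and Glul had r of -0.49 (permutation p 0.1), which was 0.17 without the 2 farthest.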

How the data were processed

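Hepatocytes and liver macrophages were profiled by total RNA sequencing (TruSeq stranded, Ribo-Zero). According to the methods and labels, reads were aligned to mm9 with STAR and counted over RefSeq transcripts with Homer; versions and use of strand are not given in the sources used here. The deposited values are RPKM multiplied by 10 (RPKTM), quantile normalized by the authors within each of 4 tables, so that all libraries of a table hold the same set of values. Depth is therefore unknown, abundant genes such as Cps1 take stepped values, and ScapKO tables were not compared with the others. Per the methods, replicates are biological.

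Values were analysed as log2(RPKTM + 1) with limma 3.58.1 in R 4.3.3 (empirical Bayes with trend), with 1 mean per genotype and time over 36 libraries and Benjamini-Hochberg adjustment over all genes above 5 RPKTM in at least 3 libraries (13326 in hepatocytes, 13947 in macrophages). Changed rhythms were F tests of the 24 h terms. JTK_CYCLE was reimplemented in Python 3.11.15 with 7 cosine patterns of 18 or 24 h, each p multiplied by the number of patterns, and only genes with a best period of 24 h were called. Fits were tested on simulated data. The members and gene lists were chosen with earlier results of these data known. Beside all 10 members, the text names the 3 listed genes with the largest called difference per hepatocyte comparison and the gene most correlated with each member. Alternatives were another pseudocount, no filter, all transcripts, a replicate block, a marker covariate, pairs of genotypes, and single libraries left out. Removing replicate 2, summing Ass1 with Gm5424 and the Otc and Dynlt3 correlation without 1 library were chosen after seeing the data. Some items of the gene lists and upstream regions are not reported here.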

Additional observations from a re-analysis of the deposited data

How the results depend on the processing

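Of 4550 values of single members under alternatives, 4436 kept their direction and side of the threshold, 86 no longer passed it, 28 newly passed it and 0 changed sign while called. Causes of the changes were not tested unless the alternative itself leaves out samples. Members called between RevDKO and Control hepatocytes numbered 2, but 1 with no filter on low values, 4 with only the 2 genotypes compared, 1 without replicate 2, 1 with Ass1 and Gm5424 summed and 0 with both of these. Between RevScapTKO and RevDKO hepatocytes 7 became 3 with the marker covariate. Between RevScapTKO and Control hepatocytes 5 became 0 with the marker covariate and 3 with the sum and without replicate 2. Shares of all genes called with the covariate are not given here. In macrophages RevDKO minus Control went from 0 to 2 without the 3 libraries of highest hepatocyte marker score (Control ZT22 replicate 3 and RevDKO ZT22 replicates 1 and 3), RevScapTKO minus RevDKO from 7 to 4 with no filter, without replicate 2, and with the sum and without replicate 2, and RevScapTKO minus Control from 1 to 2 with the replicate block, 2 with the marker covariate, and 0 without replicate 2 with or without the sum.

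With 1 library left out, the 3 hepatocyte counts ranged over 1 to 3, 7 to 8 and 3 to 5, and the macrophage counts over 0 to 2, 5 to 7 and 1 to 3. No member was called for a changed rhythm in any of these fits. Rhythmic members ranged over 4 to 6 (Control), 3 to 6 (RevDKO), 3 to 5 (RevScapTKO) and 1 to 2 (ScapKO) in hepatocytes and over 0 to 5, 1 to 4, 2 to 6 and 0 to 4 in macrophages.

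Rhythmic members in hepatocytes numbered 4 in Control, but 2 with series entered once, 0 of these after adjustment over genes, 0 with series entered once and without replicate 2, and 2 in the cosine fit. In RevDKO 4 became 0 once and adjusted, 1 once and without replicate 2, and 1 in the cosine fit. In RevScapTKO 4 became 2 once, 0 once and adjusted, and 0 once and without replicate 2. In ScapKO 1 became 0 once and adjusted and 2 with no minimum ratio. In macrophages Control went from 2 to 0 once, 0 once and adjusted, 1 without replicate 2, 0 once and without replicate 2, and 0 in the cosine fit. RevDKO went from 4 to 0 in each of the settings once, once and adjusted, once and without replicate 2, and cosine fit. RevScapTKO went from 4 to 0 in the same settings and to 2 without replicate 2, and ScapKO from 0 to 1 with no minimum ratio. Entered once and adjusted over genes, the series called 0.0611% of all genes in ScapKO hepatocytes and 0% in every other group. The counts of 0 members in that setting are therefore not results about the members.

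Replicate numbers were not stated to pair the samples. Libraries of the same number had a mean correlation of deviations of 0.0379 in hepatocytes (lowest -0.273) and 0.0898 in macrophages (lowest -0.199), so they were not treated as pairs, although replicate 2 libraries had in common the shifted stretches of neighbouring genes (median 4.52% and 8.73% of windows, against 0 in replicates 1 and 3). The replicate block left the counts in hepatocytes at 2, 7 and 5 and moved that of RevScapTKO minus Control macrophages from 1 to 2. Quantile normalization hides depth, so no counting error can be given.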

Other observations

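Gm5424, the Ass1 copy, fell with Ass1 between RevScapTKO and RevDKO hepatocytes, by 0.57 on the log2 scale (limma adjusted p 0.00226), and in macrophages, by 1.41 (adjusted p 0.000321). It differed by 0.22 between RevDKO and Control hepatocytes (limma adjusted p 0.438). In ScapKO libraries, a separately made table, it measured 71.4 ± 27.7 RPKTM in hepatocytes and 9.04 ± 7.59 in macrophages (SD, n = 12 each). The cause of its different share of the Ass1 and Gm5424 sum between tables was not tested.

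Among the 20 genes most alike each member over 36 hepatocyte libraries, 11 of those of Cps1 lay on chromosome 1 (5.9% of all genes compared), 9 of those of Otc on chromosome X (2.91%) and 6 of those of Arg1 on chromosome 10 (4.95%). Over the 24 libraries without replicate 2 these numbers were 1, 0 and 0. Otc and its X-linked partner Dynlt3 correlated at r 0.93, and at 0.83 without RevDKO ZT22 replicate 2.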
